A study of Mus musculus with 33 samples.

Results

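The samples described here are the frontal cortices of 12 C57BL/6 mice that breathed filtered air, 6 labelled female and 6 labelled male, out of 33 samples in the series. They were chosen by their labels alone: all samples of the filtered-air arm, named here by sex and the replicate number of the label (females 1 to 6, males 30, 31, 33, 37, 38 and 39). The other 21 samples came from offspring exposed to aerosol of e-cigarettes whose liquid held no nicotine or held it at 13 to 16 mg/mL, and they enter below only where a contrast with air is needed. In every group the dams, and later the dams together with their pups, spent 3 h per day on 5 days per week in a chamber. Offspring were about 1 month old (PND 25 to 31) when brains were taken, sectioned and snap frozen, and the air animals were handled like the exposed ones. According to the study's methods each pup came from its own litter, RNA was taken from frontal cortex samples, and each sex was sequenced in a run of its own. Sex and run therefore cannot be told apart, and nearly all values below are given within a table, with 6 animals each.

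The frontal cortex holds glutamatergic projection neurons in layers, inhibitory interneurons, and the astrocytes, oligodendrocytes, microglia and vessel cells around them. In the mouse it lies near the striatum, the basal forebrain and the olfactory bulb, whose neurons express well-known genes of their own. In the weeks around weaning synapses are still being refined and myelin is still being laid down, and the activity of neurons within the last hour is mirrored in immediate early genes, which are transcribed within minutes of a stimulus. Because the tissue was lysed whole, fewer cells of a type and less RNA per cell cannot be told apart in any value given here.

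Total read counts of the air samples ran from 22184221 to 27513174 in females and from 19226640 to 24600026 in males. Between 13655 and 13857 genes reached 1 CPM (counts scaled to a common library total) in a sample, and the 10 most abundant genes held 3.92 to 4.57% of the counts in females and 4.04 to 4.39% in males. No pair of air samples within a table was a repeat of the same library, since the counts of every pair differed by at least 4.53 times what sampling noise gives (chi-square per degree of freedom). Within a table, log2 CPM of the animals correlated across genes at r 0.991 to 0.995 in females and 0.992 to 0.997 in males, where genes are not independent replicates. Xist and the Y-linked genes matched the label in all 12 air samples. The library labelled male nicotine replicate 21 went against its label, with 4632 counts of Xist and 1 count over 4 Y-linked genes. It was kept under its label. Values without it are given only for the edgeR counts of variable genes called in males and for the overlap of the cholinergic sum. The other male nicotine values include it.

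Genes were compared with each other by a per-length level, the counts per kilobase of exon scaled to the same total in every sample. On this scale the highest places were held by genes that neurons and astrocytes express throughout the brain. Cpe, the carboxypeptidase that trims neuropeptide precursors (chr8:67071355-67171837, mm9), was the highest in both tables, with a per-length level of 6103 ± 281 in females and 6440 ± 249 in males (SD, n = 6 each). Fth1, the ferritin heavy chain, followed at 5315 ± 327 and 5174 ± 136, although only 79.5% of its 32-base exon windows occur once in the genome, so its level is uncertain. Cst3, a secreted cysteine protease inhibitor, stood at 5042 ± 366 and 4839 ± 144, within the spread of Fth1 in females. Apoe, the lipid carrier made mainly by astrocytes, had 4206 ± 508 and 4099 ± 286.

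Neuronal genes filled most of the other places among the 15 highest. They included the calmodulin gene Calm3, the calmodulin-binding Nrgn, the vesicular glutamate transporter Slc17a7, the membrane protein Gpm6a, the amyloid precursor-like Aplp1 and, in females, the CaMKII inhibitor Camk2n1 or, in males, the sodium pump subunit Atp1b1. The tables shared 14 of the 15 genes, and levels over all 21967 genes with a length correlated across genes at rho 0.994 between the tables. Nrgn was the least steady of them. Its level was 4672 ± 1160 in females against 3352 ± 421 in males, and within females its CPM ran from 1162 in animal 1 to 2209 in animal 2, with a median of 1485. The place of C230091D08Rik, at 4861 ± 221 and 4614 ± 244, rests on a gene model of only 54 exon bases. Ordering genes by CPM without length kept only 5 of the 15 genes in females and 4 in males.

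**Figure D1:**
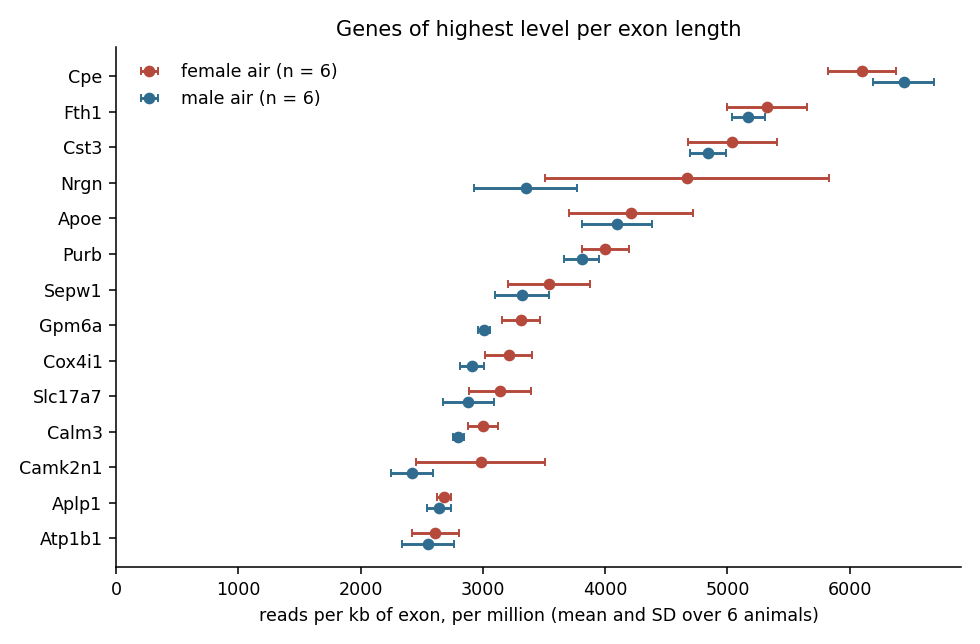
Per-length level (x axis, counts per kilobase of exon at a common total) of 14 of the most abundant genes in the air samples, without the 54-base model C230091D08Rik. Points are the mean and bars the SD over 6 animals, in red for females and blue for males. Cpe is at the top with 6103 and 6440, and Nrgn has the widest bar, among females.

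Hand-written lists of marker genes were summed in CPM for each animal. Every one of the 10 markers of cortical glutamatergic neurons was present at 1 CPM or more, and their sum ran from 9675 in female 3 to 12580 in female 2 and from 8534 in male 39 to 9949 in male 38. The defining genes included Slc17a7 as well as Tbr1 (median 201.1 CPM in females and 156.6 in males) and other transcription factors of cortical projection neurons. Upper-layer and deep-layer markers were present in full as well, 7 of 7 and 13 of 13 genes. Of 13 GABAergic interneuron markers all reached 1 CPM in both tables. Sst, the somatostatin of a large interneuron class, varied little, from 155.9 to 188.2 CPM in females and from 150.1 to 187.9 in males. Pvalb, which marks fast-spiking interneurons, was less even in females, from 25.4 in female 1 to 62.6 in female 2, while the 6 males lay between 24.2 and 34.2.

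Lists of glia, endothelium and pericytes differed between the highest and the lowest animal by 1.13 to 1.35 times. Perivascular macrophages (1.2 in females and 1.93 in males) and meningeal fibroblasts (1.32 and 1.69) differed more in males. The sum over 14 myelin genes, Mbp foremost, ran from 8874 (female 1) to 10720 (female 4) and from 10090 (male 39) to 12380 (male 37). Astrocyte markers, led by the glutamate transporter Slc1a2, summed to 12000 in female 5 and up to 16170 in female 2, and to 13130 to 15020 in males. Microglia stayed within 1125 to 1381 in females and 1152 to 1321 in males, a highest-over-lowest ratio of 1.23 and 1.15. For endothelium the ratio was 1.27 and 1.13. Lower ratios were found for synaptic vesicle release (1.12 in females and 1.11 in males) and cholesterol synthesis (1.12 and 1.08), and the ratio was 1.03 for all genes together in either table.

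Lists of other regions were present too, and those of the striatum, the basal forebrain and the olfactory bulb differed more between animals than the glial lists. Thalamus and hippocampus lists were steadier, with ratios of 1.24 and 1.25 in females and 1.22 and 1.32 in males. All 17 markers of striatal projection neurons reached 1 CPM. Their sum was 1864 in female 2, 2091 in female 6, 2547 in female 1, 3168 in female 5, 3706 in female 3 and 4306 in female 4. In males it was 2446 in animal 31, 2584 in 39, 2694 in 30, 3362 in 38, 3799 in 33 and 4147 in 37. The highest animal thus had 2.31 times the lowest in females and 1.7 times in males. Penk, the enkephalin precursor, had a per-length level of 925 ± 349 in females and 1080 ± 242 in males, and Ppp1r1b, a dopamine-regulated phosphatase inhibitor, 467 ± 134 and 531 ± 102. These levels of striatum-enriched genes stood below that of Slc17a7 (3140 ± 253 and 2881 ± 207).

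Markers of the cholinergic neurons of the basal forebrain summed to 19.7 CPM in female 6 and 78.7 in female 3, with 34.1 in male 31 and 79.4 in male 37 at the ends of the male range. Olfactory bulb markers summed to between 24.5 (female 2) and 68.0 (female 5) and between 31.5 (male 30) and 110.1 (male 39). Eomes, a transcription factor of mitral and tufted cells, was at 2.88 CPM in female 5 against at most 0.966 in the other females, and at 7.93, 2.96 and 2.02 in males 39, 31 and 37 against at most 0.358 in the other males. Choroid plexus markers summed to 686.7 in female 3 and 384.4 in female 6, and to 197.4 to 256.3 in the other females and 212.9 to 242.2 in males, where the ratio was only 1.14. The 9 hypothalamus markers were low but uneven, with sums of 13.4, 10.4, 6.87, 5.33, 3.16 and 3.08 CPM in females 2, 1, 3, 5, 4 and 6, and of 17.5, 17.2, 6.90, 6.49, 4.0 and 3.26 in males 30, 39, 33, 37, 31 and 38. Most of this came from Trh, the thyrotropin-releasing hormone, at 13.5 and 10.7 CPM in males 30 and 39, and Avp, the vasopressin precursor, reached 3.54 in female 2. The part that the position of the tissue sample played in these sums was not tested.

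The pituitary hormones Gh and Prl had at most 0.127 and 0.0519 CPM in any air sample, while Pomc, a precursor that hypothalamic neurons express as well, had 1.5 to 3.23 in females and 1.59 to 2.27 in males. Of the hypothalamus list, the lateral peptides Hcrt and Pmch had at most 0.246 and 0.493. Hba-a1 was listed at 0 in all 12 samples, which says little about blood since only 4.45% of its exon windows occur once in the genome. Gapdh, a common reference gene, was counted at only 1.77 ± 0.537 CPM in females and 2.24 ± 0.218 in males (SD, n = 6), with 46.7% of its exon windows found once. Whether genes with near-identical copies are understated in these tables was not tested.

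**Figure D2:**
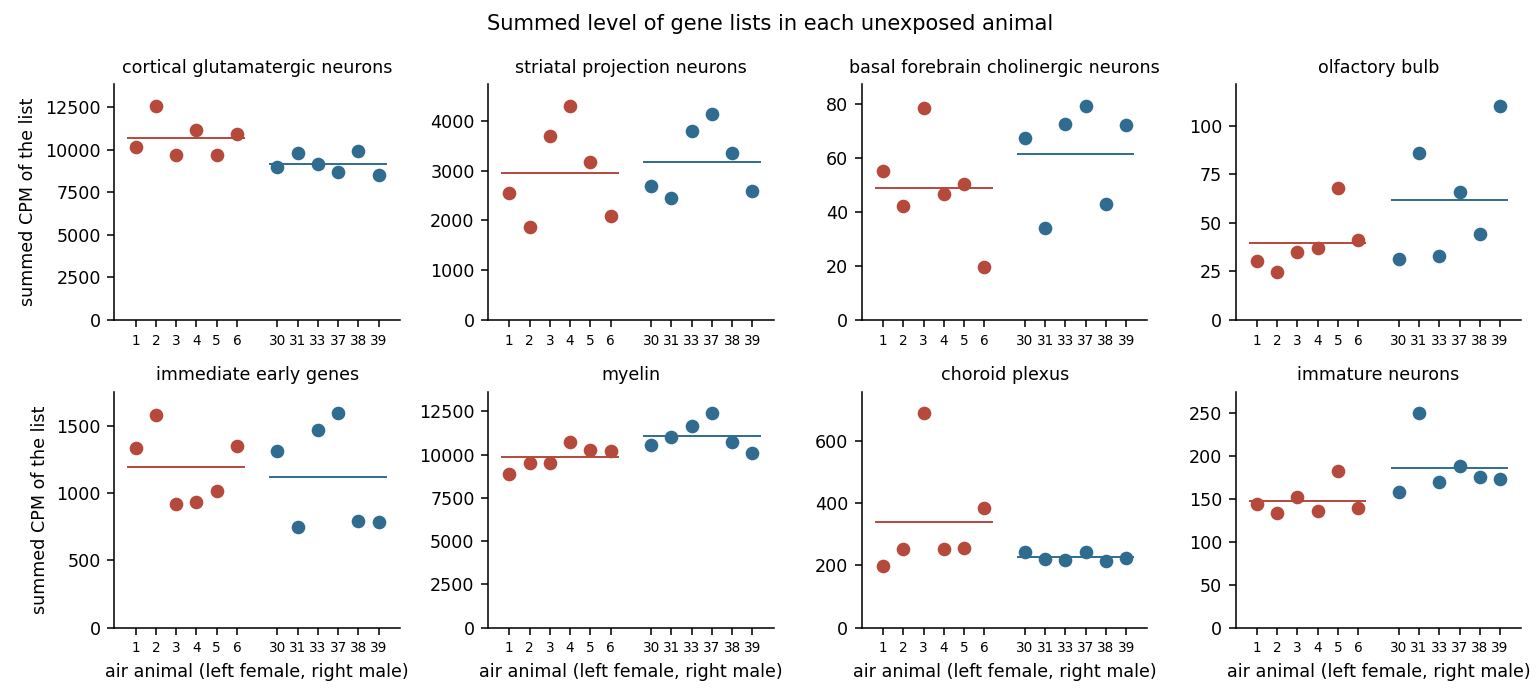
Summed CPM (y axis, from 0) of 8 gene lists in each air animal (x axis, replicate number, females in red on the left and males in blue on the right), with a line at the mean of the 6 animals of a table. The striatal, cholinergic, olfactory bulb and early gene sums scatter widely around their lines, choroid plexus is high in female 3 at 686.7, and cortical and myelin sums stay near their lines.

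Most genes varied little between unexposed animals. The spread of a gene was described by its biological coefficient of variation (CV), the SD of normalized CPM over the 6 animals of a table after counting variance is taken off, as a percentage of the mean. Over 11201 genes with a mean of at least 5 CPM in both tables, the median CV was 5.39% in females and 4.46% in males, and it stayed under 10% for 80.7% and 87.1% of the genes. A CV over 25% was found for 191 genes in females and 99 in males, and over 50% for 13 and 6. The CV was 0 for 408 genes in either table alike, meaning that the animals differed by no more than counting noise. Among these Trap1, a mitochondrial chaperone, lay between 50.1 and 53.5 CPM in females and between 48.6 and 52.0 in males, and Exosc1, a subunit of the RNA exosome, between 9.35 and 9.85 and between 8.88 and 9.61. Adal, Ntan1 and Rhoa were as even, although only 39.7% of the exon windows of Rhoa occur once in the genome and 32.8% of the exon bases of Ntan1 lie in another gene as well.

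The 100 genes with the largest CV were taken from each table. The threshold fell at 30.7% in females (gene 101 had 30.3%) and at 25% in males (gene 101 had 24.9%). The tables share no animal, and 51 of the 100 genes were in both lists, that is 51.0% of each list, when a list holds 0.893% of the genes. CVs of all genes correlated across genes between the tables at rho 0.448. Of the 51 shared genes, 10 were immediate early genes, 7 were striatal markers and 3 were cholinergic markers, while 29 belonged to none of the hand-written lists. Shared list membership is given here as a description, since lists and values had been seen before.

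**Figure D3:**
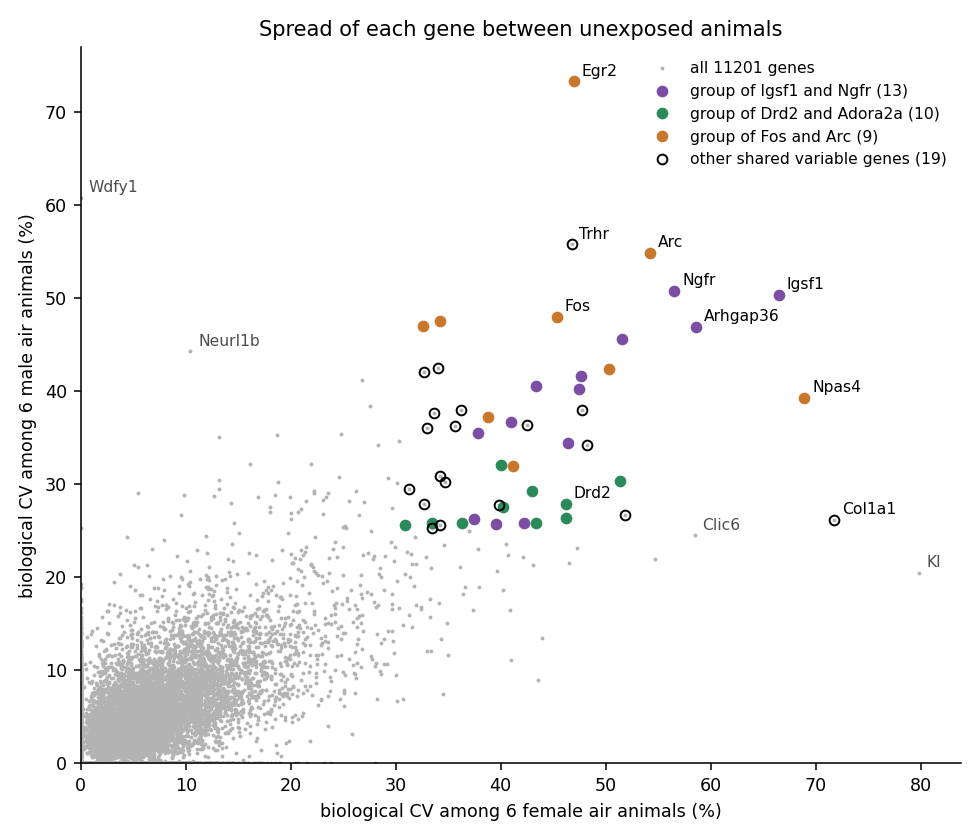
Biological CV of 11201 genes in the 6 female (x axis) and 6 male (y axis) air animals, in percent, with a grey point for each gene and larger marks for the 51 genes among the 100 highest of both tables, coloured by the linked group described next. Most genes lie near the origin, under 10% on both axes, and Egr2, Arc, Ngfr and Igsf1 are high on both.

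The 51 genes fell into groups that were high in the same animals. Linking genes whose log2 CPM correlated at r of at least 0.8 in each table gave 3 larger groups with 13, 10 and 9 genes, a group of 4 genes, 2 pairs and 11 genes with no link. Because 6 animals were used to choose and to link the genes, the correlations are a description and carry no test. As a reference, the mean correlation over all pairs of genes was 0.000128 in females and 0.00107 in males.

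The group of 10 genes held mostly striatal projection neuron genes. They included Scn4b, Drd2, Adora2a, Pde10a, Pdyn and Syndig1l from the marker list, together with Cd4, Slc35d3 and Lrrc10b, and their mean pairwise r was 0.922 in females and 0.855 in males. Drd2, the dopamine receptor of the indirect pathway (chr9:49148732-49216282, mm9), had 12.8 CPM in female 2, 17.6 in 6, 22.4 in 1, 32.2 in 5, 35.1 in 3 and 48.2 in 4. In males its CPM was 21.3 in animal 31, 22.4 in 39, 27.3 in 30, 31.8 in 38, 40.4 in 33 and 41.1 in 37. The same order of animals held for the whole list of 17 markers, whose mean pairwise r was 0.93 and 0.91, and 13 of the 17 were among the 100 most variable genes in females and 7 in males.

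Adora2a, the adenosine receptor of the same neurons, ran from 49.8 to 157 CPM in females and from 76.8 to 142 in males. Drd1a, the dopamine receptor of the direct pathway, ran from 44.8 to 115 and from 62.1 to 112. Genes of both striatal pathways were thus high and low in the same animals. Females 3, 4 and 5 and males 33, 37 and 38 held the 3 highest values of Drd2, Adora2a and Drd1a, with no other animal of the table above them.

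The largest group, with 13 genes, joined the cholinergic transporters Slc5a7 and Slc18a3 and the neurotrophin receptor Ngfr with Igsf1, Arhgap36, Agt, Gpr101, Nr2f2, Baiap3, Ngb, AW551984, Dlk1 and Tacr3. Agt is angiotensinogen, made in the brain chiefly by astrocytes of subcortical regions, Tacr3 the neurokinin B receptor and Nr2f2 a nuclear receptor of ventral and caudal neurons. Igsf1, a membrane glycoprotein best known from the pituitary and hypothalamus (chrX:47135713-47150926, mm9), had 29.6, 26.7, 14.9, 12.2, 5.91 and 4.64 CPM in females 3, 1, 2, 5, 6 and 4. In males it had 29.1, 26.3, 20.1, 12.6, 9.33 and 8.13 in animals 30, 39, 33, 37, 38 and 31. Highest and lowest animals differed 6.36-fold and 3.57-fold.

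Ngfr (chr11:95430132-95449049, mm9) had 10.04, 8.60, 7.86, 5.42, 2.10 and 1.93 CPM in females 3, 1, 2, 5, 6 and 4. Its male values were 14.4, 12.2, 10.7, 9.56, 3.76 and 3.04 in animals 39, 30, 37, 33, 38 and 31. For Agt, females 1 and 3 had 72.2 and 72.8 CPM and the other females 22.9 to 45.0, while males 30, 33 and 39 had 52.4 to 63.1 and the other males 24.1 to 24.8. The mean pairwise r within the group was 0.752 in females and 0.766 in males. Female 3 was thus high for this group and for striatal genes, while females 4 and 5 were high for striatal genes and not among the 3 highest for Igsf1 or Ngfr. The hypothalamus sum given above was also highest in females 1, 2 and 3 and in males 30, 39 and 33, the animals with the 3 highest Igsf1 values, and its part in the group's levels was not tested.

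By the likeness rule, the gene most like Igsf1 over the 6 animals of each table was Nrip2 (0.959, the smaller of both r values), followed by Resp18 (0.946), a neuroendocrine secretory protein, and Arhgap36 (0.927). Nap1l5, an imprinted gene, was the closest to Arhgap36 (0.951). Dlk1 (0.931) and Grb10 (0.922), both imprinted as well, were the closest to Gpr101. Such partners at r of at least 0.9 (females and males alike) numbered 2 to 11 for each of the 10 named genes, when the median gene had 1 and the 95th percentile was 15 of 11200. Close partners were thus not unusually many for these genes.

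The group of 9 genes was made of immediate early genes, Arc, Egr2, Fos, Cyr61, Npas4, Btg2, Junb and Nr4a1, plus Apold1, an early gene of endothelium. Its mean pairwise r was 0.832 in females and 0.842 in males. Arc, whose protein acts at active synapses (chr15:74499513-74503000, mm9), had 408, 246, 243, 147, 143 and 83.7 CPM in females 2, 6, 1, 5, 3 and 4. In males it had 315, 288 and 265 in animals 33, 37 and 30, against 103, 95.9 and 93.5 in animals 31, 39 and 38. The male values thus formed a high and a low set with a wide gap between them.

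Egr2, a zinc finger transcription factor (chr10:66998223-67004936, mm9), had 19.1 to 20.7 CPM in females 1, 2 and 6 and 7.47 to 8.34 in females 3, 4 and 5. The males split as for Arc, with 24.5, 24.1 and 16.1 in animals 33, 37 and 30 and 4.54 to 5.08 in the others. Fos ran from 18.1 (female 4) to 68.2 (female 6) and from 27.9 (male 38) to 83.3 (male 37). Over the whole list of 16 immediate early genes, 10 were among the 100 most variable genes in females and 13 in males. The summed CPM of the list was 1586, 1357 and 1336 in females 2, 6 and 1 and at most 1019 in the other females, and 1596, 1473 and 1317 in males 37, 33 and 30 and at most 792.9 in the other males.

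Not every early gene followed the same animals. Egr1, the most abundant of the list after per-length scaling (457 ± 93.4 in females, 407 ± 116 in males), had a CV of 21.4% in females, rank 288, and its second highest female value, 430 CPM, was in animal 4, which was the lowest for Arc, Fos and Npas4. Cyr61 was low in male 30 (9.04 CPM), where Arc was high. The gene most like Arc was the clock gene Per1 (smaller r 0.958), which itself is induced by activity, and the gene most like Fos was the kinase Sik1 (0.959). The clock list as a whole did not move together: the mean pairwise r of its members was 0.0941 in females and 0.0508 in males, and its summed CPM varied only 1.14-fold and 1.08-fold.

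Promoters were read for the early genes because their members were high in the same animals. The motif searched was the 7-letter TGACGTC, the core of the cyclic AMP response element bound by CREB, on either strand, where the palindrome TGACGTCA counts as overlapping matches on both strands. RefSeq promoters (GRCm38.p6, a newer build than the mm9 used for the counts, 250 bases before to 50 after the start) were matched for 12 of the 16 genes, all but Egr1, Egr3, Arc and Ier2. The motif was in 4 of the 12 (33.3%), when 900 of 27025 promoters of the same length (3.33%) hold it. The 60 bases around the match are shown for these 4 genes on the gene's strand, with matches in capitals, at chr19:4990114-4990173 (Npas4, minus strand), chr4:48045073-48045132 (Nr4a3, plus), chr17:26508606-26508665 (Dusp1, minus) and chr1:134079288-134079347 (Btg2, minus).
Npas4: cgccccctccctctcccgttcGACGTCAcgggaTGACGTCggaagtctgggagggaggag
Nr4a3: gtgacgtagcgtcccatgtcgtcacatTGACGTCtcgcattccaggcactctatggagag
Dusp1: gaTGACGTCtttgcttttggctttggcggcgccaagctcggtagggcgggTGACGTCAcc
Btg2: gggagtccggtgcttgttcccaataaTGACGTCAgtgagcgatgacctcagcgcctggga

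Npas4 and Btg2 were in the linked group of 9, Nr4a3 was linked only with Fosb, and Dusp1 was rank 102 in females and 34 in males, just outside the female list. The E-box CACGTG, bound by the clock proteins, was in 5 of 14 matched clock promoters (35.7%) when 1957 of all promoters (7.24%) hold it, and these genes hardly varied together. A match is only a string of letters in these windows and not evidence of binding.

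**Figure D4:**
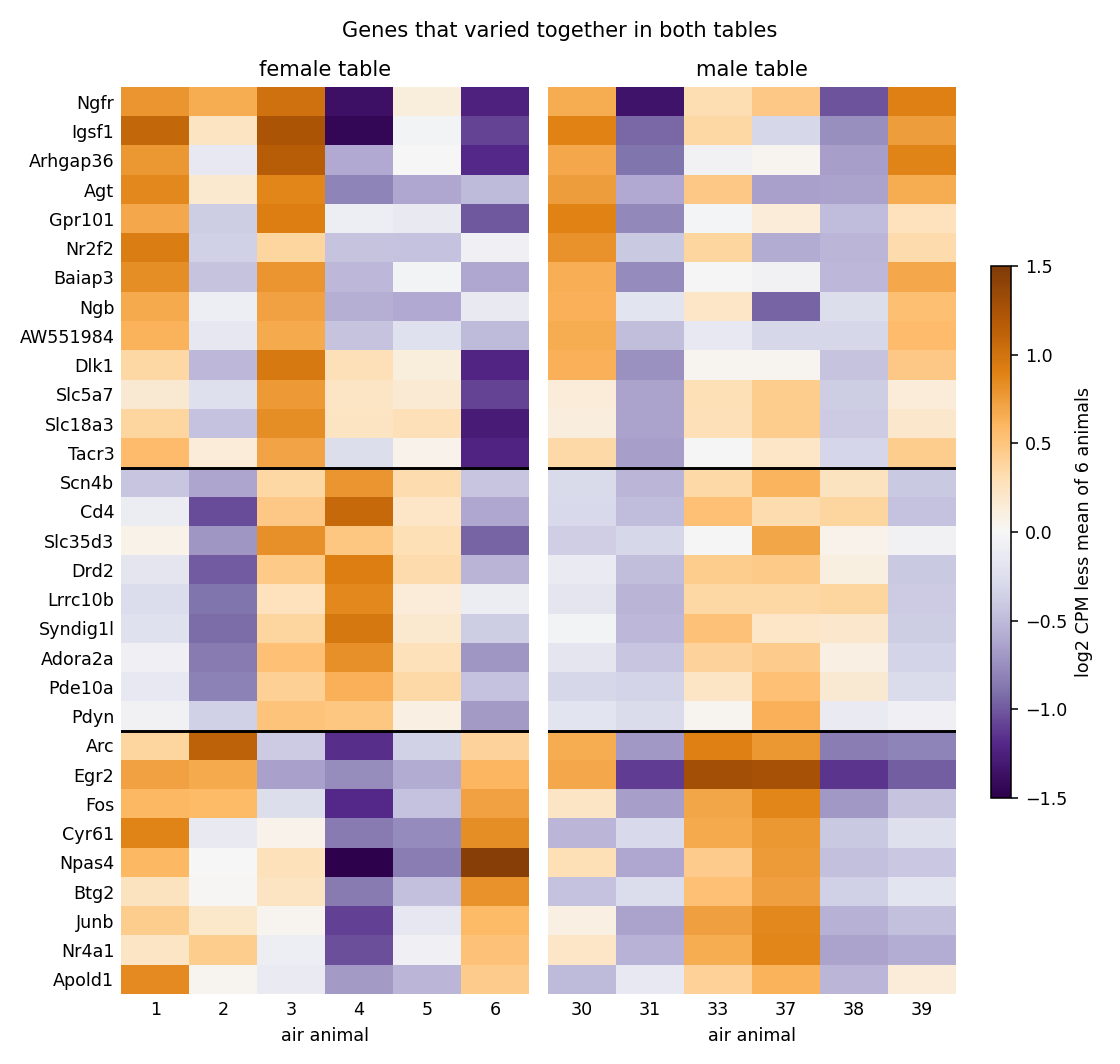
Log2 CPM of genes of the 3 larger linked groups (rows) in each air animal (columns, females on the left and males on the right), less the mean of the gene over the 6 animals of the table, in orange where above it and purple where below. Striatal genes are high in females 3, 4 and 5 and males 33, 37 and 38, early genes in females 1, 2 and 6 and males 33 and 37, and the group of Igsf1 in females 1 and 3 and males 30 and 39.

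A smaller group of Abi3bp, Ndst4, Klhl14 and Nmbr was high in females 5 and 6 and lowest, for all 4 genes, in male 30 (mean pairwise r 0.868 and 0.952). Nmbr, the neuromedin B receptor, had 9.56 and 8.87 CPM in females 5 and 6 and 2.15 to 5.02 in the others. Cpne9 and Tnnc1, which were linked with each other, followed another order and were highest in female 2, with 40.8 and 16.0 CPM, and lowest in male 33, with 7.69 and 3.65. Klhl14 and Nmbr overlap a neighbouring gene over 13.8 and 10.9% of their exon bases. Nptxr, a synaptic pentraxin, shares 81.5% of its exon bases with Npcd, so its low values of 29.9 CPM in female 1 and 16.8 in male 30 cannot be assigned to either gene.

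Some genes owed their spread to a single animal. In female 4, Col1a1, the chain of type I collagen, was at 93.9 CPM while the other females lay between 24.6 and 30.6, and its CV went from 71.8 to 10.2% without that animal. Col1a2, the partner chain, was at 108 CPM there and at most 56.4 in the other females. Further genes were looked up after this was seen. The bone genes Bglap, Mmp13 and Phex were at 1.19, 1.56 and 2.16 CPM in female 4 against at most 0.171, 0.0448 and 1.27 in the other females. The neutrophil granule genes Mpo, Ngp and Camp were at 1.11, 2.16 and 1.15 CPM there against at most 0.169, 0.214 and 0, and S100a8 and S100a9 at 1.78 and 3.38 against at most 0.179 and 0.437. Col3a1, Dcn and Igf2, which meningeal fibroblasts express, were lowest in the same animal, at 15.9, 15.2 and 129 CPM.

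Female 3 stood out for choroid plexus genes. Ttr, the thyroid hormone carrier of the plexus, was at 265 CPM there and at 85.6 in female 6, against 0.483 to 2.11 in the other females, 18.9 in male 30 and at most 1.96 in the other males. Kl, the klotho co-receptor, was at 25 CPM against 4.72 to 11.5, and its CV, the highest of the female table, went from 79.9 to 39.9% without female 3. For Clic6 the value was 21.4 against 5.68 to 9.14, and its CV went from 58.5 to 15%.

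Single animals stood out for other genes too. Wdfy1, an endosomal adaptor of Toll-like receptor signalling, was at 43.4 CPM in male 33 against 13.2 to 18.4 in the other males and 11.2 to 12.2 in females, though only 71.4% of its exon windows are unique. Neurl1b, a ubiquitin ligase, was at 235 CPM in male 38 against 78.3 to 123. Prokr2, a prokineticin receptor of the olfactory bulb and hypothalamus, was at 11.5 CPM in female 5 against 3.01 to 5.33 in the other females and 6.33 to 14.5 in males, and female 5 also had the highest olfactory bulb sum and Eomes of the females. Ndn, an imprinted gene of the Prader-Willi region, was at 343 CPM in female 5, 368 in male 30 and 308 in male 38, against 153 to 207 in the other females and 159 to 193 in the other males. Its neighbour Magel2 was high with it in male 30, at 7.29 CPM, but not in female 5 (2.54) or male 38 (2.93).

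**Figure D5:**
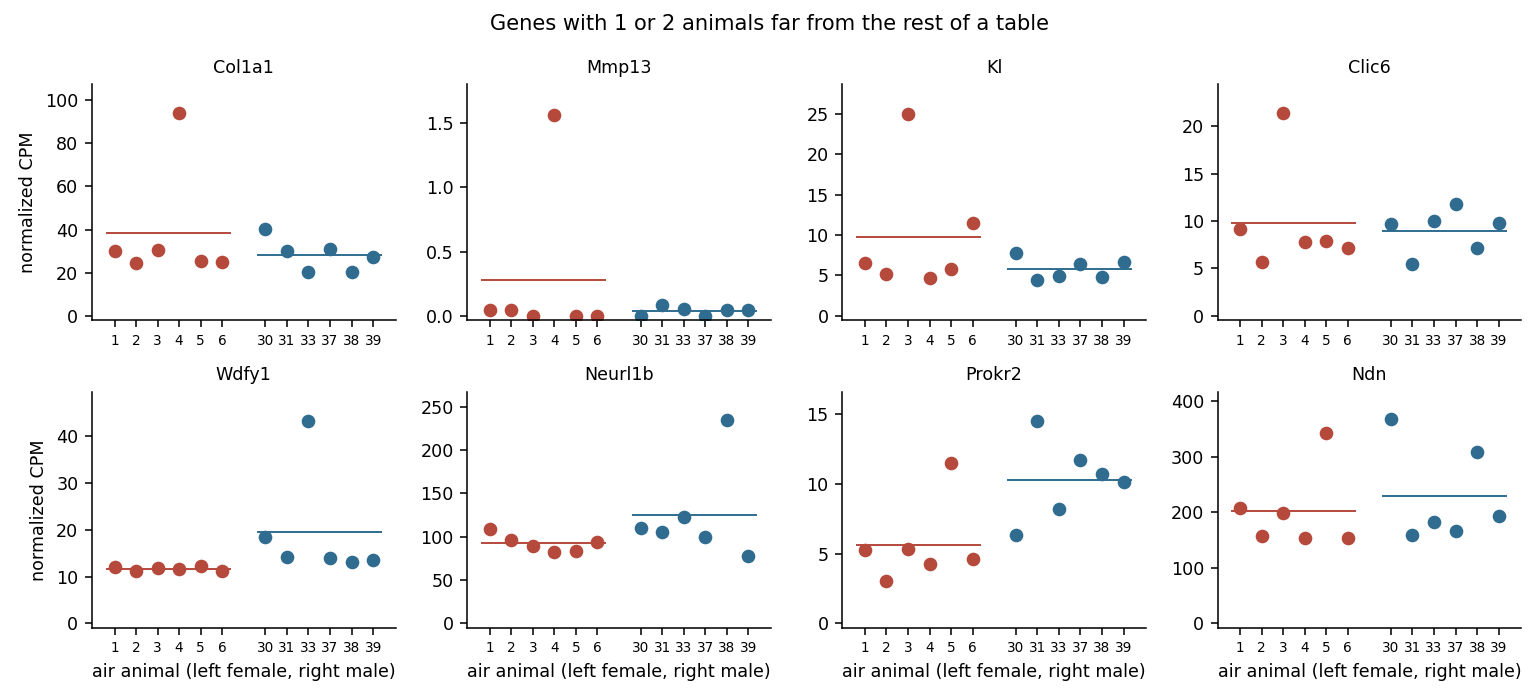
Normalized CPM (y axis, linear) of 8 genes with single high animals, with a point for each air animal (x axis, replicate number, females in red and males in blue) and a line at the mean of a table. Col1a1 and Mmp13 are high in female 4, Kl and Clic6 in female 3, Prokr2 in female 5, Wdfy1 in male 33, Neurl1b in male 38 and Ndn in female 5 and males 30 and 38.

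The first principal component of log2 CPM held 32.2% of the variance among females and 29.1% among males. Its scores set female 1 (-18.0) and female 3 (-12.1) against female 4 (12.8), and male 37 (-13.1) against male 30 (18.5), with the sign set so that cortical glutamatergic genes load positively. Their median loading was 2.03 in females but 0.18 in males, where the sign is nearly arbitrary. Loadings of 13617 genes correlated across genes at r -0.227 between the tables, and only the size of this value can be read, since turning either component turns its sign.

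Scores of pairs of lists were correlated over the 6 animals of a table, 12 tests in all, and none passed the Benjamini-Hochberg adjustment. The smallest p that an exact permutation over 6 animals can give here is 0.00278. Upper and deep cortical layers had the strongest relation in females, with r -0.894 (exact two-sided permutation p 0.0278, adjusted p 0.333) and rho -0.886 (p 0.0333, adjusted p 0.35). In males r was -0.735 (exact permutation p 0.0861, adjusted p 0.517) and rho -0.829 (p 0.0583, adjusted p 0.35). Without the 2 animals farthest from the median upper-layer score, r was weaker, at -0.575 and -0.226. Dropping the extremes of a score narrows its range, so how far the relation rested on them cannot be told. Leaving out each animal in turn gave r of -0.968 to -0.521 in females and -0.833 to -0.688 in males. Cortical glutamatergic and striatal scores gave r -0.368 in females (rho -0.371, exact permutation p 0.454 and 0.497) and -0.495 in males (rho -0.6, p 0.285 and 0.242), with adjusted p of 0.606, 0.718, 0.555 and 0.711. The other pairs had r from -0.578 (cortical glutamatergic with myelin, males) to 0.519 (early with glucocorticoid genes, females), and none passed the adjustment. With 6 animals this does not show a lack of correlation.

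Between the sexes, which were also different runs, 482 of 14824 genes tested (3.25%) differed in the air samples by edgeR's quasi-likelihood test with a Benjamini-Hochberg adjusted p below 0.01. Of these 93 were higher and 389 lower in females, so 19.3% were higher. DESeq2 called 1167 genes, 427 of them (36.6%) higher. The count was 231 (9.09% higher) without male 31, 284 (14.1%) without female 2 and 283 without female 4, and the share that was higher ran from 9.09 to 25.8% when each animal was left out in turn. The differences were small, the median absolute log2 fold change being 0.30, and 7 genes passed a fold of 2. Xist, the RNA that silences an X chromosome, was at 134.2 ± 8.69 CPM in females and 0.109 ± 0.0709 in males (SD, n = 6). Kdm6a and Ddx3x, which escape silencing, were higher in females by 0.36 ± 0.05 and 0.31 ± 0.05 on the log2 scale (SE, edgeR, adjusted p 0.00121 and 0.000933).

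Outside the sex-linked list, the genes with the smallest p that were lower in females included Tnrc18 (log2 fold change -0.52 ± 0.05), Numa1 (-0.54 ± 0.05), Elavl3 (-0.36 ± 0.03) and Phldb1. Those that were higher were Tmem183a (0.22 ± 0.03), Mmd (0.32 ± 0.05), Shisa5, Eif5a and Atp6v1f. For Tnrc18 this is 63.0 ± 2.91 CPM in females against 90.5 ± 5.54 in males. Of the 100 most variable genes of either table edgeR called 0, while 19 of the female and 21 of the male list had an unadjusted p below 0.05, against 27.6% of all genes, and DESeq2 called 2 and 0. Of the region and cell type lists, edgeR and DESeq2 called 0 of the 17 striatal, 16 early, 7 cholinergic, 14 astrocyte and 14 microglial genes, of which 1, 2, 2, 4 and 0 had an unadjusted p below 0.05. In the same edgeR fit 1 of 14 myelin genes and 1 of 8 oligodendrocyte precursor genes were lower and 2 of 11 interferon genes higher in females.

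The variable genes of one table can be followed in the exposed animals of the other, which share no animal with those that chose them. The 100 genes most variable among female air animals were tested in males. With no nicotine against air, 37 were called by edgeR (Benjamini-Hochberg adjusted p below 0.01), against 13.6% of all genes tested and 16.6% of genes with a mean of at least 5 CPM. Of the 37 genes 27 were higher and 10 lower than air, when 6.15% of all genes were called higher and 7.47% lower. Their median absolute log2 fold change was 0.80, against 0.10 over genes of that level. With nicotine against air 0 of the 100 were called by edgeR, as for all genes (0.0%). An unadjusted p below 0.05 was found for 40, against 14.4% of all genes. DESeq2 called 12, and its share of all genes in this contrast is not given here. Without the library labelled male nicotine replicate 21 the edgeR counts were 38 with no nicotine and 0 with nicotine.

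In the other direction, the 100 genes most variable among male air animals were tested in females. With no nicotine 28 were called, against 12.1% of all genes and 14.4% of those with at least 5 CPM. Of these 16 were higher and 12 lower than air, when 5.03 and 7.03% of all genes were called in these directions. With nicotine 8 were called, against 4.29% and 5.26%, with 5 higher and 3 lower against 1.98 and 2.32%. The count with no nicotine went to 15 without female no-nicotine replicate 3 (16 without replicate 2 or replicate 5), and that with nicotine to 2 without female nicotine replicate 2, 3 without replicate 1 or replicate 6, 4 without female air replicate 6, and 5 without nicotine replicate 5 or air replicate 2 or 5. The count in nicotine-exposed females thus lay on both sides of the share of all genes under these omissions.

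Which of the linked groups these were differed. For the group of Igsf1, 11 of 13 genes were higher with no nicotine than in air in each sex by edgeR, with a median log2 fold change of 1.81 in females and 1.46 in males, when 5.03 and 6.15% of all genes were called higher and the median over all genes was 0.01 and 0.02. Ngfr was higher by 2.93 ± 0.43 in females and 2.06 ± 0.32 in males on the log2 scale (SE, edgeR, adjusted p 0.000841 and 0.000183). Igsf1 was higher by 2.22 ± 0.44 and 1.81 ± 0.27 (edgeR, adjusted p 0.00212 and 0.000147), and Agt by 1.88 ± 0.34 and 1.52 ± 0.27 (edgeR, adjusted p 0.00146 and 0.000492). With nicotine, against the same air animals, 4 of the 13 were called higher in females and 0 in males, against 1.98 and 0.0% of all genes, with medians of 1.20 and 0.94. In males 12 of the 13 had an unadjusted p below 0.05, against 14.4% of all genes. DESeq2 called 5, and its share of all genes in this contrast is not given here. Markers of other regions moved with these genes. On CPM scaled over all samples, the hypothalamus sum had a median of 6.24 in air, 26.3 with no nicotine and 20.1 with nicotine in females, and of 6.85, 22.3 and 21.8 in males, with overlap between air and exposed animals. The cholinergic sum had medians of 49.8, 255.7 and 169.6 in females and 71.2, 195.6 and 128.4 in males, and every exposed group lay above air without overlap, with or without male nicotine replicate 21, although Ngfr, Slc5a7 and Slc18a3 of the linked group belong to that list. Their part in the values of the group was not tested.

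Of the 9 early genes 0 were called in any of the 4 contrasts by edgeR or DESeq2, with medians from -0.42 to 0.23, and 2 had an unadjusted p below 0.05 in each sex with no nicotine and 0 with nicotine. The shares of all genes with such a p were 36.4% in females and 36% in males with no nicotine and 28.1 and 14.4% with nicotine. For Arc the log2 fold change was -1.02 ± 0.40 in females with no nicotine (edgeR, adjusted p 0.0753). Of the 10 striatal genes edgeR called 1, higher in males with no nicotine, where DESeq2 also called 1, and the medians ran from 0.28 to 0.80. An unadjusted p below 0.05 was found for 10 of them in males and 4 in females with no nicotine, and for 0 in males and 10 in females with nicotine, against the same shares of all genes. The 4 of 10 in females thus lie near the share of all genes. The 51 genes were chosen in both tables, so these values for the linked groups are a description and not a separate test.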

How the data were processed

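The authors deposited read counts per gene, 1 table for each sex. Per the paper's methods, Bowtie aligned the single reads to mouse transcripts of mm9, SAMtools took out duplicates and HTSeq counted what was left, so multi-copy genes and highly expressed genes can be understated. The tables held 23366 genes and 34 columns, of which 1 was not matched to a labelled sample and not used here. Spreadsheet dates stand in place of symbols for some genes, and 4 genes have a date in common. Tables of the same counts after scaling were not used, and a few genes are not reported here.

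Counts were normalized with TMM in edgeR 4.0.16 (R 4.3.3), and levels are normalized CPM from 1 set of factors over the 12 air samples. Exon lengths, positions and repeats of 32-base windows came from the mm9 annotation, which matched 21967 genes (1399 not). Contrasts were fitted with edgeR's quasi-likelihood test on genes with CPM summing to at least 5, with Benjamini-Hochberg adjusted p below 0.01: female against male air alone, and, with no covariate, 1 model for all 3 groups of each sex. DESeq2 1.42.0, the tool of the study, was an alternative, as were other normalizations and filters, other measures of spread and leaving out each sample. Log2 CPM used a prior count of 1. On simulated counts 200 genes were changed by log2 1, up or down. Of these edgeR recovered 90.5% for the air comparison (14824 genes, 3 false calls), 86.5% for females (15158 genes, 4 false calls) and 84% for males (15293 genes, 1 false call). Genes called between female and male air had a median absolute log2 fold change of only 0.30, and recovery at such sizes was not measured.

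Named genes were the 15 highest per length, the 10 of largest CV in each table and in both, the 5 of smallest CV in both (ties in table order), up to 4 abundant list members with defining markers near 0, the 8 at each end of the first component, the sex-linked genes, the 5 per direction of smallest p between sexes, and the 5 genes most like a variable gene. Others were chosen after their values were seen. Members and lists were chosen with earlier results of these data known. Python 3.11.15, pandas 2.3.3, numpy 2.4.6, scipy 1.17.1 and matplotlib 3.10.9 were used.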

Additional observations from a re-analysis of the deposited data

Results flagged for a closer look

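In 14 of 210 sets of 6 air animals (6.67%) the highest or lowest animal lay farther from the rest than Dixon's criterion allows. Chance gives about 1 in 20 for sets chosen without regard to their values, which these were not: some genes were taken for their large CV or after their values were seen, and genes of a tissue move together, so the rates cannot be compared.

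Female 4 was high for the collagen chain Col1a1 at 93.9 CPM, the bone genes Mmp13 at 1.56 CPM and Bglap at 1.19 CPM, and the neutrophil gene Mpo at 1.11 CPM. Female 3 was high for the choroid plexus genes Kl at 25 CPM and Clic6 at 21.4 CPM. Female 5 was high for Ndn at 343 CPM and Prokr2 at 11.5 CPM.

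Male 33 was high for Wdfy1 at 43.4 CPM and male 38 for Neurl1b at 235 CPM. Male 39 was highest for Tmem183a at 101 CPM, where the other males lay between 97.8 and 98.9, so the gap was small in size. Male 37 was lowest for Apoe at 1840 CPM against 2078 to 2198. The summed CPM of immature neuron markers was 249.5 in male 31 against at most 187.7 in the other males, with Dcx, a microtubule protein of young neurons, at 117 CPM against 57.8 to 78.9. The summed CPM of unfolded protein response genes was 971.7 in male 30 against 795.3 to 858.8. The cause of each was not tested.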

How the results depend on the processing

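Replicate numbers did not pair the female samples, since 5 of 14 same-numbered pairs had a correlation of deviations over 0.1 and 4 of 16 samples were most like their own number. With the replicate block the variable genes of the male table called in females numbered 11 with no nicotine and 2 with nicotine. DESeq2 called 1167 genes between female and male air. It called 12 variable genes of the female table in males with nicotine and 13 of the male table in females with nicotine. Its shares of all genes in these nicotine contrasts are not given here. In females with nicotine, choosing genes without male air 31 gave 4 by edgeR. Leaving out each sample gave 231 (without male 31) to 538 (without female 1) genes between female and male air, with 284 and 283 without females 2 and 4. The variable genes called numbered 32 to 44 and 0 in every case in males, and 15 to 30 and 2 to 11 in females, without and with nicotine. Shared variable genes numbered 43 to 52 of 100 (23 of 50 and 104 of 200).

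The first component held 32.8 to 39.5% in females and 31.3 to 36.2% in males (33.1% for genes with mean CPM of at least 5), and its loadings correlated at -0.296 to 0.29 between tables, positive without female 1, male 30 or male 37, where the sign of a component is arbitrary. Scores correlated at -0.728 to 0.0724 (cortical with striatal, females; positive without female 2), -0.166 to 0.712 and -0.382 to 0.323 (endothelium with meninges, females and males; negative without female 5, male 30 or male 38) and -0.603 to 0.0195 (early with glucocorticoid genes, males; positive without male 39, and 0.152 with z-scored genes). None of these correlations had passed a test, and the causes were not tested. By CPM without length 5 of the 15 most abundant genes remained in females and 4 in males. The direction of the named genes between sexes held in all alternatives, with 6 of 342 fits no longer past the threshold. A count table made from 6 animals limits correlations between lists, and genes with near-identical copies can be understated, which was not tested. The added alternatives, leaving out male nicotine 21 and leaving out each air animal for the CV of named genes, were chosen after seeing the data.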
